A study of Caenorhabditis elegans with 3 samples.

Results

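The genes described here are 30 Caenorhabditis elegans genes of Wnt signalling and asymmetric cell division, of 19985 annotated protein-coding genes. They were taken from a named list and comprise the 5 Wnt ligands, 2 genes of Wnt secretion, 6 receptors, 1 secreted inhibitor and 1 planar polarity gene. The list also holds 3 Dishevelled genes, 5 genes of the destruction complex, 4 beta-catenins, and 3 genes for the nuclear effector and the kinases that act on it. For each gene, chromatin immunoprecipitation sequencing (ChIP-seq) peak lists for the chromatin protein EGL-27 were searched from 5000 bp upstream of the outermost annotated 5′ end to the end of the gene. A gene was counted where a summit, the position of highest signal within a peak, lay in that window.

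The study mapped EGL-27 in whole first-stage (L1) larvae of strain OP177, labelled as mixed sex, in 3 biological replicates that form a single group. All replicates carried the unc-119(ed3) III mutation and the integrated transgene wgIs177, and the precipitated protein is labelled as an eGFP fusion of EGL-27. A note on replicate 3 describes the tag as GFP-FLAG at the C terminus. For replicates 1 and 2 the labels give CGC as the source of the worms and 150 to 350 bp as the size range. Worms of replicate 3 were supplied by the submitting laboratory, and microtip sonication is named only for it. No untagged strain was used here, tagged and endogenous EGL-27 share the animals, and whole larvae do not show in which cells a site was occupied.

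EGL-27 is a worm relative of the MTA proteins found in nucleosome remodelling and deacetylase complexes, and its mutants have defects in cell polarity and cell migration. In Wnt signalling, ligands that need Porcupine and Wntless for their secretion bind Frizzled, Ryk or Ror receptors, which act through Dishevelled. In the worm this controls beta-catenin through a complex of APC, axin, GSK3 and casein kinase, and it also sets the nuclear ratio of the TCF protein POP-1 to the beta-catenin SYS-1 in the daughters of asymmetric divisions.

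The sequence at 3 of the peaks reported here is shown, each as 100 bases on either side of the summit. The sequences of mom-1 and mig-5 stand at peaks of the authors' optimal list, the list thresholded on the irreproducible discovery rate (IDR). The lit-1 sequence was chosen after its values were seen, to show a summit outside that list, at pooled rank 1083, that holds several of the searched motifs. All are the plus strand of the RefSeq sequence of WBcel235 (ce11) at chrX:6296436-6296636, chrII:8185101-8185301 and chrIII:13713019-13713219. A single capital in the middle marks the summit base, and longer runs of capitals mark searched motifs on either strand.
mom-1: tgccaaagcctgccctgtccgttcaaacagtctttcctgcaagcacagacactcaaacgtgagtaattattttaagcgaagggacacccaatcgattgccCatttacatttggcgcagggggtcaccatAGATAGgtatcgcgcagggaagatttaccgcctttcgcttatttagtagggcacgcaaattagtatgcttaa
mig-5: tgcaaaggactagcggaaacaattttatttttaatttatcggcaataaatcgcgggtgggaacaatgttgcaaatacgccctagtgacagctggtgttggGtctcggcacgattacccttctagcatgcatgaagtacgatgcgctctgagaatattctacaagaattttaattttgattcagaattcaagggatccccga
lit-1: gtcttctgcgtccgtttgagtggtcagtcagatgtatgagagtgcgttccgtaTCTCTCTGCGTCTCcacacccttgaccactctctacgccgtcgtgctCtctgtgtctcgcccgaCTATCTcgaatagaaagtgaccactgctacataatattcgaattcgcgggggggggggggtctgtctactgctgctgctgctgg
The GC content of these stretches was 46.8%, 41.8% and 55.2%. The run of capitals at mom-1 is the GATA form AGATAG, 29 to 34 bases from the summit. At lit-1 the first run is a GA repeat, read as TCTCTC on this strand, that overlaps CTGCGTCTC, and the second run is a GATA form read as CTATCT. The mig-5 stretch holds none of the searched motifs.

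Signal in the optimal list of 705 peaks ran from 31.5 to 252.5 around a median of 42.9. The relaxed lists, which keep background peaks for the IDR procedure, held 23218 peaks for the pooled replicates and 15286, 30000 and 30000 for replicates 1, 2 and 3. Signal is the value that the authors' lists give for each peak, and it was ranked within each list, with rank 1 the highest. To compare lists of unequal length, each replicate was also reduced to its 705 strongest peaks, called its top list here. These end at a signal of 7.63, 14.2 and 16.6 in replicates 1, 2 and 3, so signal values are not comparable between replicates and ranks are given beside them.

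Of the 30 genes, 3 had an optimal EGL-27 summit in the window, and each belongs to a different step of the pathway. They were mom-1, which encodes the Porcupine acyltransferase that lipid-modifies Wnt ligands for secretion, mig-5, which encodes a Dishevelled protein, and gsk-3, which encodes the kinase of the destruction complex. This is 10% of the genes, beside 5.37% of all protein-coding genes (1073 of 19985). None of the 15 ligand, receptor and beta-catenin genes held one, which is too few genes to differ visibly from a share of 5.37%. With the narrower promoter window, which reaches 1000 bp before and 500 bp past each annotated 5′ end, only mig-5 was counted, which is 3.33% beside 2.22% of all protein-coding genes. Windows of the 30 genes were longer than most, with a median of 9676.5 bp beside 7026 bp for all protein-coding genes. Per 100 kb of window they held 0.917 optimal summits beside 0.717 for all protein-coding genes. The first of these rates rests on 3 summits in 327 kb.

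**Figure D1:**
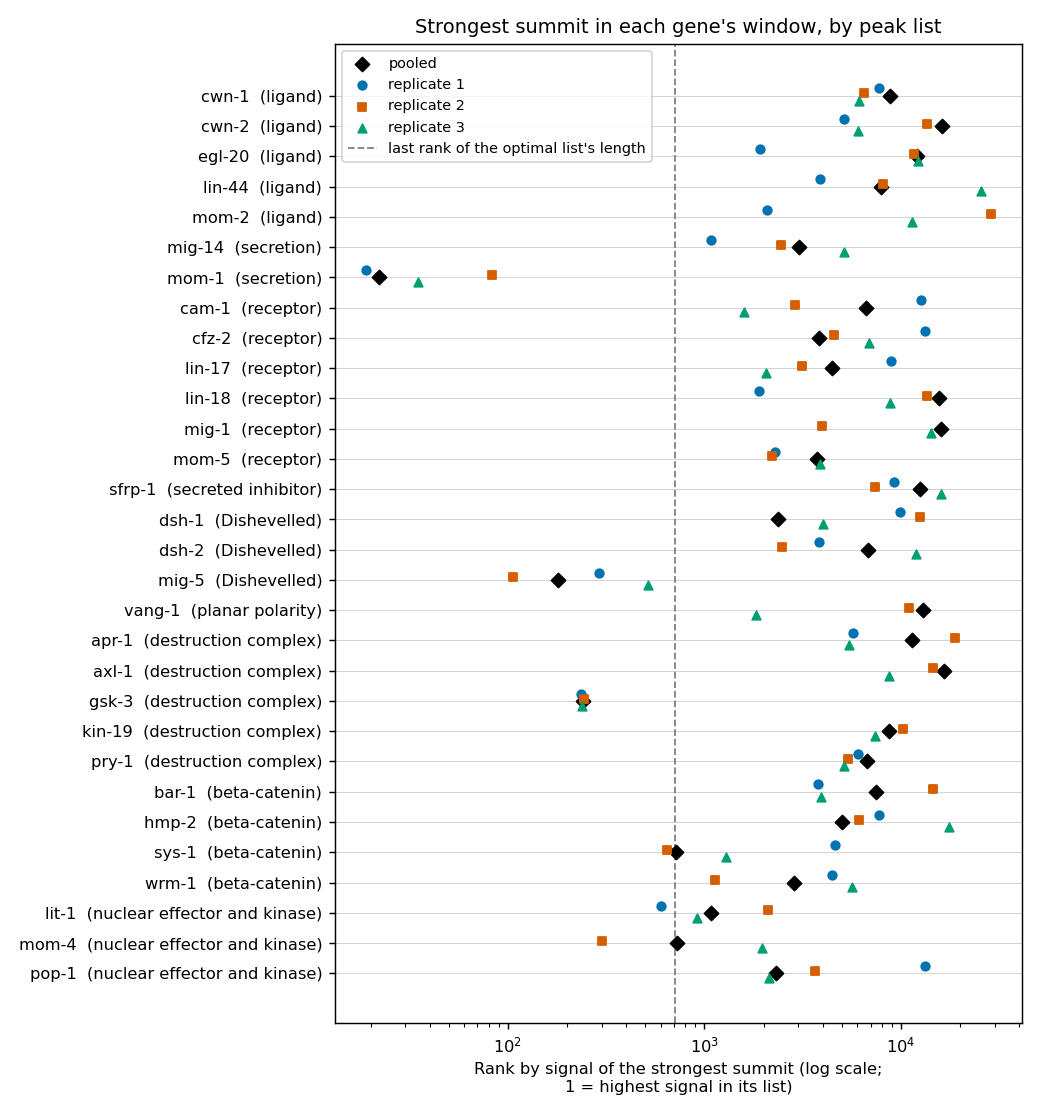
The rank by signal of the strongest summit in each gene's window is plotted on a log axis for the pooled list (diamonds) and for replicates 1, 2 and 3 (circles, squares and triangles), with genes in rows and their class in brackets. The dashed line marks rank 705. Only mom-1, mig-5 and gsk-3 have all 4 symbols to the left of it, and mom-2 has no diamond.

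mom-1 carried the strongest peak of the set. Its optimal peak spans 6296341 to 6296730 on chromosome X (ce11, 390 bp) with a signal of 104.4, rank 22 of 705. Replicate 1 gave a signal of 26.2 (rank 19), replicate 2 a signal of 29 (rank 83) and replicate 3 a signal of 52.2 (rank 35). All replicates thus placed it among their 100 strongest peaks. The replicate summits lay 38, 79 and 35 bp from the optimal summit at 6296536, within a span of 114 bp. That summit is 3424 bp downstream of the only annotated 5′ end of mom-1, at base 43 of intron 7, the last intron (6296494 to 6297792, 1299 bp). The peak also covers 101 exon bases. Every pooled peak in the windows has the same width of 390 bp, so peak spans do not measure how far binding extends. Another 5′ end, that of the downstream gene cest-16, was slightly nearer at 3406 bp, so the position does not assign the peak to 1 gene. The next strongest peak within 5 kb reached a signal of 15.8 in the pooled list (rank 3819, 201 bp away).

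The mig-5 peak was the only optimal peak of the set at a member's own promoter. It spans 8185006 to 8185395 on chromosome II with a signal of 57.0, rank 180. Replicate 1 gave a signal of 10.5 (rank 290), replicate 2 a signal of 26.4 (rank 106) and replicate 3 a signal of 19.3 (rank 518). The peak stood in every top list, while its rank varied by more than that of gsk-3. Replicate summits fell within a span of 42 bp. The optimal summit at 8185201 is 178 bp upstream of mig-5, between it and cct-1, a chaperonin subunit gene that starts 242 bp away in the opposite direction. Peak position alone cannot tell these genes apart. Little else was listed nearby, and the next pooled peak within 5 kb had a signal of 9.6 (rank 15260). The other Dishevelled genes had no optimal summit, and their best pooled ranks were 2378 for dsh-1 and 6815 for dsh-2.

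The gsk-3 peak had nearly the same rank in every list. It spans 12815739 to 12816128 on chromosome I with a signal of 50.3, rank 242. Replicate 1 gave a signal of 11.3 (rank 236), replicate 2 a signal of 19.7 (rank 245) and replicate 3 a signal of 27 (rank 239). Replicate summits fell within a span of 76 bp. The optimal summit at 12815934 lies 3282 bp upstream of gsk-3 but 30 bp inside Y18D10A.4, in its coding exon. It is therefore a peak at the start of a neighbouring gene that the 5000 bp window includes. For all 3 optimal peaks, none of the 355 overlapping 36-base words in the peak occurs at a second place in the nuclear genome.

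**Figure D2:**
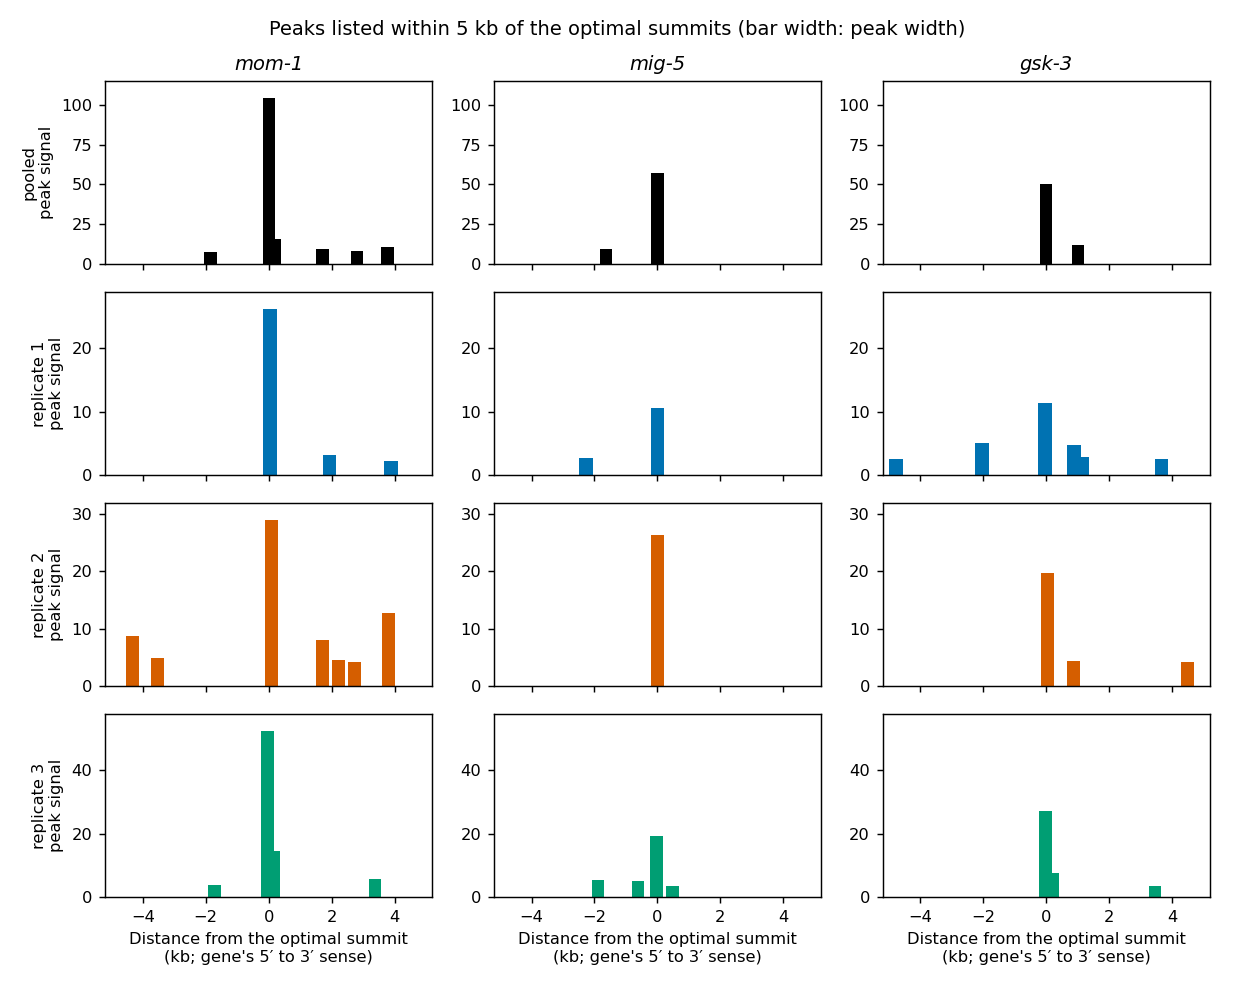
Signal of each listed peak within 5 kb of the optimal summits of mom-1, mig-5 and gsk-3 (columns) is drawn for the pooled list and each replicate (rows), against distance from the optimal summit in kb in the sense of the gene. Bar width is peak width and each row has its own signal scale from 0. In every panel the tallest bar stands at the summit, and the second is at most 15.8 in the pooled row.

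The replicates named the same 3 genes at the top and few others. Top-list summits were found for 4 genes in replicate 1 (13.3%, beside 4.88% of all protein-coding genes), 5 in replicate 2 (16.7%, beside 5.37%) and 3 in replicate 3 (10%, beside 4.88%). In every replicate these included mom-1, mig-5 and gsk-3. Replicate 1 added lit-1 (rank 603). Replicate 2 added mom-4 (rank 300) and sys-1 (rank 647). At least 2 top lists held 3 genes, again 10%, beside 4.0% of all protein-coding genes, and every top list held the same 3, beside 1.59% (318 genes). The optimal list was built from these replicates, so their top lists are not separate evidence for its peaks.

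After the 3 genes with an optimal summit, the next best pooled ranks were those of sys-1, mom-4 and lit-1. sys-1 encodes the beta-catenin that is the POP-1 coactivator, mom-4 a kinase related to TAK1, and lit-1 the Nemo-like kinase that acts with WRM-1 on POP-1. Their strongest pooled summits had signals of 31.4 (sys-1, rank 716), 31.2 (mom-4, rank 724) and 26.1 (lit-1, rank 1083), while the optimal list ended at 31.5. The sys-1 summit was matched within 200 bp by summits of rank 4590, 647 and 2713 in replicates 1, 2 and 3. For mom-4 replicate 1 listed none, and replicates 2 and 3 gave ranks of 300 and 1963. For lit-1 replicate 1 again listed none, and replicates 2 and 3 gave ranks of 3783 and 983. None of these peaks was thus in the top list of more than 1 replicate.

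These summits also differed in where they lie. The sys-1 summit is 4140 bp upstream of the gene and between histone genes, 171 bp from his-67 and 198 bp from his-68. That of mom-4 is intergenic, 2532 bp upstream, with the 5′ end of lsl-1 nearer at 2070 bp. The lit-1 summit lies in an intron 11128 bp into the gene, which at 22414 bp is the longest of the set, and 926 bp from one of its internal 5′ ends. lit-1 also held the most pooled summits, 19 of the 121 in all 30 windows. The strongest lit-1 summit of each replicate lay elsewhere, 15642, 15896 and 17306 bp into the gene in replicates 1, 2 and 3. Those of replicates 1 and 2 are 254 bp apart, and both lie within 200 bp of a pooled summit of rank 7560. That of replicate 3 stands at a pooled summit of rank 1327, which replicate 1 matched at rank 2822.

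pop-1, the TCF gene, had its strongest pooled summit 2853 bp upstream at rank 2306, matched in replicates 1, 2 and 3 at ranks of 13707, 10404 and 16761. Among the beta-catenins, wrm-1 had a summit 92 bp upstream at rank 2852. It was matched at rank 1135 in replicate 2 and at 14272 in replicate 3, and replicate 1 listed none. bar-1, the beta-catenin of the canonical pathway, reached rank 7478 and hmp-2, which acts at cell junctions, rank 5018. The beta-catenin genes thus spread from just below the optimal list to far down the relaxed one.

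Among the 6 receptor genes the best pooled ranks had a median of 5554. The Frizzled genes mom-5, cfz-2 and lin-17 had best pooled ranks of 3748, 3847 and 4441, and the Frizzled gene mig-1 had only 1 pooled summit, at rank 16041. For the Ror gene cam-1 the rank was 6667 and for the Ryk gene lin-18 it was 15612. Replicates could put their strongest summit in a window at different places. For lin-18 it lay 732 bp into the gene in replicate 1, 1046 bp upstream in replicate 2 and 272 bp upstream in replicate 3. For cam-1 it lay 2979 bp upstream, 568 bp upstream and 1463 bp into the gene. Ranks of such weak summits come from lists of unequal length and are not compared between replicates.

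Wnt ligand genes had weaker best summits, with a median pooled rank of 10450 over the 4 with a pooled summit. Their best pooled ranks were 7951 for lin-44, 8826 for cwn-1, 12074 for egl-20 and 16104 for cwn-2, and mom-2 was the only 1 of the 30 genes with no pooled summit. The mom-2 window, at 7198 bp, is also the shortest of the 30, and the part of window length in these ranks was not tested. In replicates 1, 2 and 3 the best ranks were 1925, 11589 and 12148 for egl-20 and 2081, 28764 and 11403 for mom-2, in lists of unequal length. No replicate had a ligand gene in its top list. The Wntless gene mig-14, whose product carries ligands to the cell surface, reached pooled rank 3016 at 2174 bp upstream. It was matched at ranks 1085 and 6572 in replicates 1 and 3, and replicate 2 listed no summit there.

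In the destruction complex the optimal peak counted for gsk-3 is the one at the start of Y18D10A.4, and it is not counted with 2000 bp upstream. The next strongest summit in the gsk-3 window had pooled rank 8838. Of the other genes of the complex, the axin gene pry-1 reached pooled rank 6691, the casein kinase gene kin-19 rank 8667, the APC gene apr-1 rank 11389 and the second axin gene axl-1 rank 16589. In replicates 1, 2 and 3 the best ranks of pry-1 were 6076, 5404 and 5118, and replicate 1, the shortest list, had no summit for axl-1 or kin-19. The planar polarity gene vang-1 reached rank 12961 and the secreted Frizzled-related gene sfrp-1 rank 12435.

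**Figure D3:**
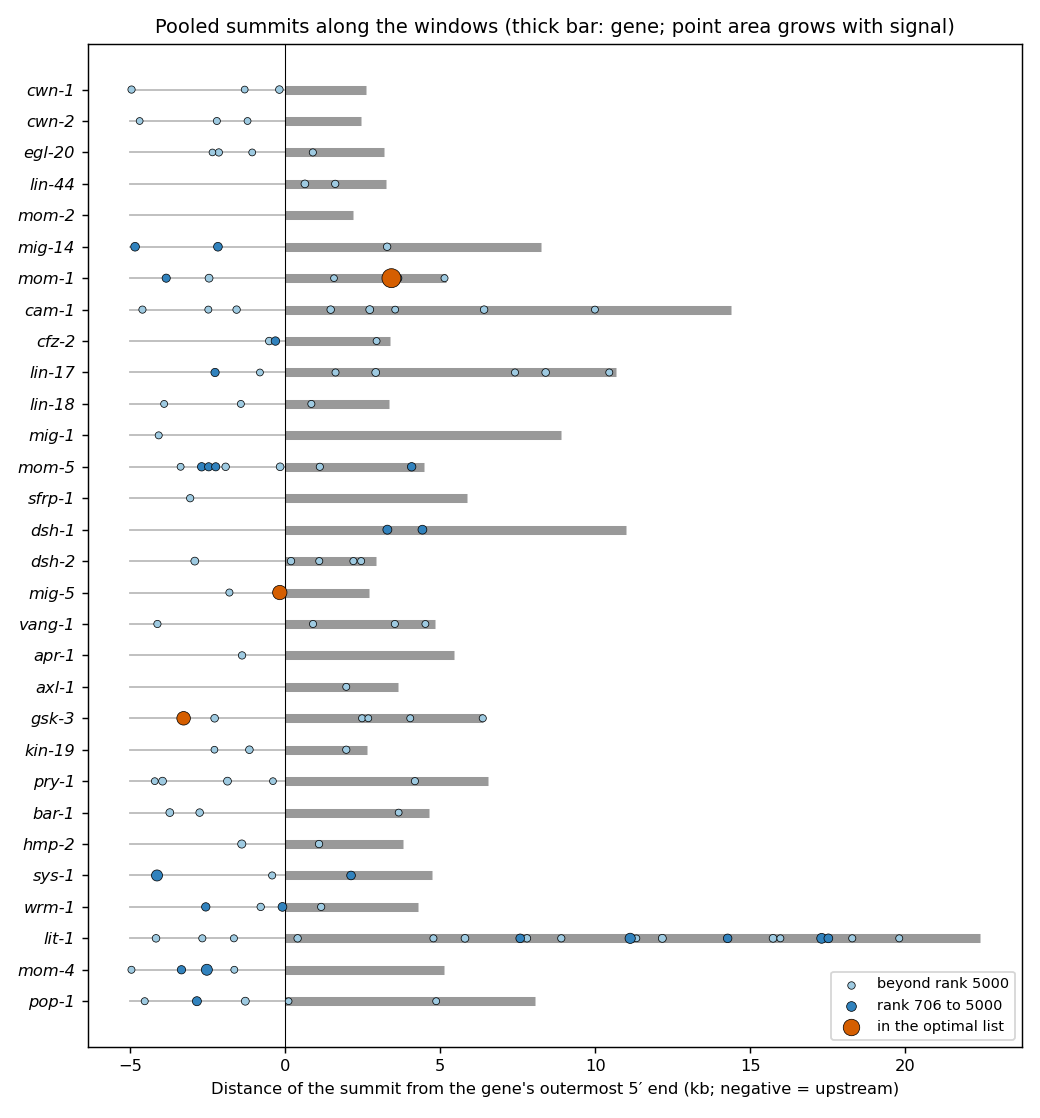
Every pooled summit in the window of each gene is plotted at its distance in kb from the outermost 5′ end, with the gene drawn as a thick bar and negative values upstream. Point area grows with signal, and colours separate the 3 optimal summits from other summits down to rank 5000 and from weaker ones. The strong points of mig-5 and gsk-3 lie upstream and that of mom-1 lies inside the gene.

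Considering weak peaks as well, 29 of the 30 genes (96.7%) had a pooled summit, beside 75.2% of all protein-coding genes. At or above pooled rank 1000 there were 5 genes (16.7%, beside 7.33%), at rank 5000 there were 13 (43.3%, beside 28.8%) and at rank 10000 there were 21 (70%, beside 47.7%). The windows held 37 pooled summits per 100 kb, beside 23.6 for all protein-coding genes. Where a gene had any pooled summit, the median best rank was 6667, beside 7143.5 for all protein-coding genes. Window length enters these shares, and its part in them was not tested.

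**Figure D4:**
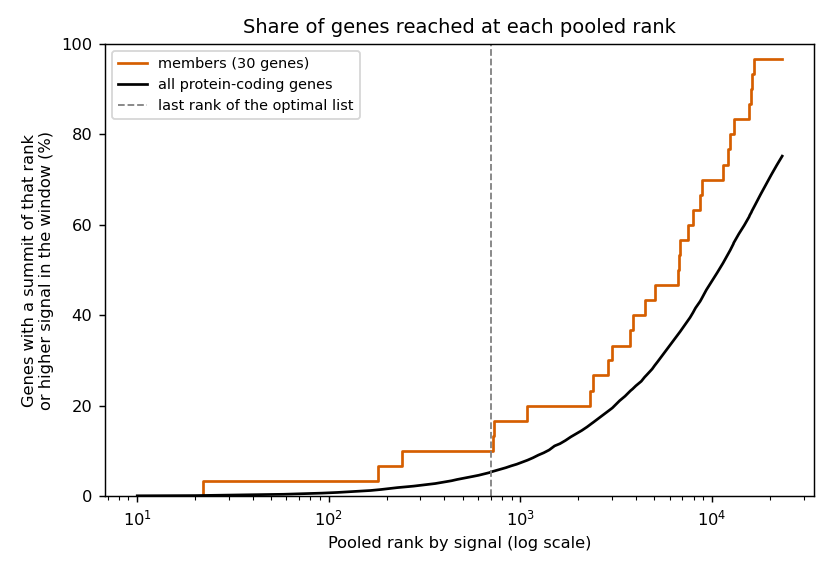
The share of genes with a pooled summit of a given rank or better in the window is drawn against that rank on a log axis, for the 30 genes (stepped line) and for all protein-coding genes (smooth line). At rank 705, marked by the dashed line, the lines stand at 10% and 5.37%, and they end at 96.7% and 75.2%.

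Most of the weak summits were not found in all replicates. Of the 118 pooled summits in the windows that are not in the optimal list, 5 (4.24%) had a summit within 200 bp in every replicate, beside 5.89% of all pooled peaks outside the optimal list and 83.4% of the optimal peaks. They were 1 each at sys-1, pop-1, dsh-1 and mom-5, and a shoulder 201 bp from the optimal summit of mom-1, which replicates 1 and 2 match only with their peak at that summit. The mom-5 summit (rank 4017) was matched in replicate 3 only at 197 bp, by a summit nearer to another pooled summit (rank 4755). Among the 29 strongest pooled summits, 1 a gene, replicates 1, 2 and 3 listed a summit within 200 bp for 9, 19 and 24. The replicate 1 list is also the shortest, and its part in this was not tested. By place, 61 of the 121 pooled summits were upstream of the gene, 36 in introns, 17 in coding exons and 7 in other parts of exons. The gene's own 5′ end was the nearest for 81 of them (66.9%), and for 33 of the 61 upstream ones.

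Sequence motifs were searched within 50 bp of each summit on both strands. GAGAGA was present at 21.5% of the 121 pooled summits in the windows, between the 11.0% of all pooled summits and the 41.3% of optimal summits. CTGCGTCTC, known from regions that many worm factors occupy, was present at 5.79%, beside 1.91% and 15.2%. The GATA forms AGATAA or AGATAG or TGATAA or TGATAG were present at 19%, beside 20.7% and 19%. CTTTGA, the core of TCF sites that POP-1 binds, was present at 7.44%, beside 7.05% and 3.27%, and CACGTG at 2.48%, beside 2.31% and 6.53%. Among the 3 optimal summits, gsk-3 had 3 GAGAGA matches, of which 2 overlap each other, mom-1 had 1 GATA form, and mig-5 had none of the 5 motifs. The strongest pooled summits of sys-1, mom-4 and lit-1, all outside the optimal list, each held both GAGAGA and CTGCGTCTC. Those of pop-1 and dsh-1, the next in pooled rank, held GAGAGA without CTGCGTCTC. Both motifs also stood together at weaker pooled summits of pop-1 (rank 6324), lit-1 (rank 7560) and cam-1 (rank 9681). The share of all summits that hold both was not counted. A match describes the letters under a summit and does not show what binds them.

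Further genes linked to the pathway were taken from a list of 58, and 6 of these (10.3%) had an optimal summit, beside 5.37% of all protein-coding genes. Window length enters this share too, and its part in it was not tested. The 6 include egl-27 itself, whose peaks cannot be told apart from those of the transgene, and the count was 2 without replicate 1 or 3 and 3 without replicate 2, when all protein-coding genes stood at between 1.81% and 2.3%. In Wnt transport and surface regulation 2 of 13 genes had one. mtm-3, a myotubularin-type lipid phosphatase gene, had a signal of 102.2 (rank 26) 1103 bp upstream, with replicate ranks of 120, 66 and 11. dpy-23, which encodes an AP-2 adaptor subunit that recycles the Wntless protein, had 59.8 (rank 161) 270 bp upstream, with ranks of 373 and 69 in replicates 1 and 3 and no summit in replicate 2. Both lie nearest to the gene's own 5′ end.

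Of 13 nuclear cofactor genes, 3 had an optimal summit, egl-27 among them. In classes of this size a share of 5.37%, that of all protein-coding genes, gives about 1 gene or none, so these counts are given as a description. cbp-1, the CBP/p300 acetyltransferase gene, had a signal of 36.2 (rank 530), and dpy-22, a Mediator subunit gene, had 31.5 (rank 704), the last but 1 of the list. Replicate 1 listed neither, and replicates 2 and 3 gave ranks of 3336 and 262 for cbp-1 and of 1658 and 383 for dpy-22. The remaining cofactor gene is egl-27 itself, with 6 optimal summits up to a signal of 169.3 (rank 4). The transgene carries egl-27 sequence, and reads from it and from the endogenous gene cannot be told apart in these lists. Among 16 reported targets and lineage regulators only tlp-1, a zinc-finger gene of asymmetric divisions in the tail, had one, with a signal of 34.1 (rank 598) and replicate ranks of 1414, 912 and 650. None of 13 polarity and migration partners and none of 3 adhesion partners of beta-catenin had one.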

How the data were processed

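The data were ChIP-seq peak lists from 3 biological replicates of 1 group. The signal values per peak were deposited by the authors, in 1 list for each replicate, 1 for the pool of replicates and 1 thresholded list. Per the deposited library notes, a single control alignment served all of them. The tools for alignment and peak calling and the threshold of the IDR procedure are not given in the sources used here, and read depth is unknown, so no interval is given for a single signal value. Lists in ce11 were used, and the 5 lists in ce10 were not.

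Peaks were ranked by signal within each list with Python 3.11.15, pandas 2.3.3 and numpy 2.4.6, and figures were drawn with matplotlib 3.10.9. Only the counts of summits in windows and the summed window lengths were checked on simulated peaks and genes. Genes came from Ensembl release 115 of WBcel235. Of 59 further pathway gene names 1 was not matched, which left 58. Summits in different lists were matched within 200 bp, and coordinates are 1-based. A distance is from the outermost 5′ end unless another end is named, and the nearest 5′ end is that of any transcript of a protein-coding gene.

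The genes and lists were chosen with earlier results of these data known. For that reason, and because there is a single group, no test and no p-value is given, and counts stand beside the same counts over all protein-coding genes. All 30 genes are accounted for, genes with an optimal summit are named with replicate ranks, and others by their best pooled rank. Other windows, thresholds, top list lengths, overlap rules and the omission of each replicate were tried as alternatives.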

Additional observations from a re-analysis of the deposited data

How the results depend on the processing

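Shares over all protein-coding genes moved with the settings and stand in brackets. The count of the 30 genes with an optimal summit was 3 (5.37%). It was 2 with 2000 bp (3.56%) or 1000 bp (2.7%) upstream, where gsk-3 was lost, and 2 without the gene body (4.58%), where mom-1 was lost. It was 3 above the optimal list's median signal (2.72%) and 4 with any overlap of peak and window (5.64%), which added sys-1. Without each replicate in turn, with only optimal summits inside a top-list peak of both other replicates kept, it was 3 (1.81% to 2.3%). The count in every top list was 2 at 352 peaks a replicate (0.806%), without mig-5, and 3 at 1410 (2.98%). In at least 2 top lists it was 5 at 1410 peaks (7.35%), with lit-1 and sys-1 added. This count takes a summit anywhere in the window, so the lists need not share a place. For sys-1 the strongest summits lay 4159 bp upstream in replicate 2 and 2221 bp into the gene in replicate 3. For lit-1 they lay 15642 and 17306 bp into the gene in replicates 1 and 3. The promoter count was 1 in all alternatives run (0.756% to 3.22%). Within 100 bp of the summit, CTGCGTCTC was also present at gsk-3. The 6 further pathway genes became 3 above the median signal (2.72%) and between 2 and 3 without each replicate in turn (1.81% to 2.3%), so the share over all genes fell with them. No paired analysis was possible because there is a single group. Depth is unknown, so a missing summit does not show that EGL-27 is absent.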

Other observations

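Optimal summits also lay just beyond the 3′ ends of 2 genes that had none in their window. At sys-1 the summit is 161 bp past the gene (rank 475, signal 38.4) and 240 bp from the 5′ end of eif-3.C, a translation initiation factor gene. At vang-1 it is 759 bp past the gene (rank 308, signal 45.4) and 51 bp from the 5′ end of B0410.3.

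The genes are not spread evenly over the chromosomes, with 12 on chromosome I, 6 on II, 3 each on III and IV, 2 on V and 4 on X. On chromosome I, mom-5 and sys-1 lie 10 kb apart, and mom-4 lies 64.8 kb from mom-5. No pooled summit fell in the windows of 2 of the genes.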
